A study of Eucalyptus grandis and Eucalyptus globulus with 10 samples.

Results

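Xylem of E. grandis clone B stood apart from the xylem of the other 3 clones in 100 transcript features, 50 of them higher and 50 lower in clone B. The features were chosen by their values on the 8 xylem arrays, out of 21413 features read on each array. For each feature the gap is the distance, in log2 units, between the nearer clone B array and the nearest of the 6 other xylem arrays, when both clone B arrays lie on the same side. The 100 features of largest gap were taken from the 18936 in which the mean of E. grandis clone A lay within 1 log2 unit of the mean of E. globulus. The differences between clone B and the other xylem arrays therefore describe how the features were found and carry no test.

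RNA came from trees of 4 years grown in the field at 1 site. A clone is a set of trees propagated from 1 mother tree, and a ramet is 1 such tree. Clone B of E. grandis gave differentiating xylem from 2 ramets, and so did clone A of E. grandis and clones A and B of E. globulus. The letters do not link clones of different species. The 2 ramets of E. grandis clone A also gave mature leaf blade with the central vein removed. No tree received a treatment. Each of the 5 groups thus holds 2 trees of a single genotype, and a difference between clones cannot be told apart from other differences between the sampled pairs of trees.

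Differentiating xylem is the young wood just inside the cambium, where cells enlarge, lay down thick secondary walls of cellulose, hemicellulose and lignin, and then die as vessels and fibres. Leaf blade is instead dominated by photosynthetic cells. E. grandis and E. globulus are both grown for pulp, and planting stock is multiplied as clones because trees of 1 genotype grow and form wood alike. The feature IDs were not paired with gene names in the sources used here and 0 of 21413 matched the reference gene table, so no role can be given for a feature. For the same reason the tissues were not checked against marker genes. Probe sequences were not used here. In such bulk tissue, fewer cells of a type and less RNA per cell cannot be told apart.

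The per-array files and a deposited table of the whole series disagree on which sample an array belongs to, and the grouping of clone B rests on this. Of the 10 columns of that table, 9 hold the values of another sample's array file, and the columns run in the order of the array numbers. In the table as named, the column for clone B ramet 2 holds the array that the files assign to clone A xylem ramet 2. Under those names 0 of the 100 features keep clone B apart, and the gap is between -7.31 and -0.79 log2 units. The column for E. globulus clone A ramet 2 holds the array that the files assign to clone B ramet 2. The features were chosen for a gap between that array and clone A xylem ramet 2, so the 0 was fixed by the choice. The table's leaf columns correlate with xylem columns at up to r = 0.981 across features, whereas the leaf files correlate with the xylem files at 0.604 to 0.747. All values below use the per-array files. On these, the clone B ramets correlate with each other at r = 0.976, with clone A xylem at 0.933 to 0.959, and with E. globulus xylem at 0.898 to 0.954. Array medians were between 221 and 237 intensity units.

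Values are log2 of the deposited RMA expression value, a summary of the brightness of the probes of a feature, averaged over the 2 blocks of an array. Over all 21413 features, 6.19% lay above all 6 other xylem arrays in both clone B arrays and 3.91% below them. Within the limit on clone A these were 1274 features above and 771 below. The 100 described here are the outer end of that distribution, with gaps from 0.75 to 2.58 log2 units and a median of 1.03. The gap was over 1 log2 unit in 57 features, over 1.5 in 18 and over 2 in 3. The means of clone B and of the 6 other arrays were further apart than the gap. They differed by a median of 1.68 log2 units among the features higher in clone B (0.98 to 2.96) and by a median of -1.76 among those lower (-3.13 to -1.23).

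At the edge of the choice, LYPTUS00S00007909 was the second to last feature inside, with a gap of 0.753, and LYPTUS00S00010606 the last, with 0.752. LYPTUS00S00019432 and LYPTUS00S00005300 fell just outside, with gaps of 0.748 each. The edge is therefore not a break in the data. LYPTUS00S00010606 was at 7.48 and 7.45 on the clone B arrays and between 6.27 and 6.69 on the other xylem arrays.

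**Figure D1:**
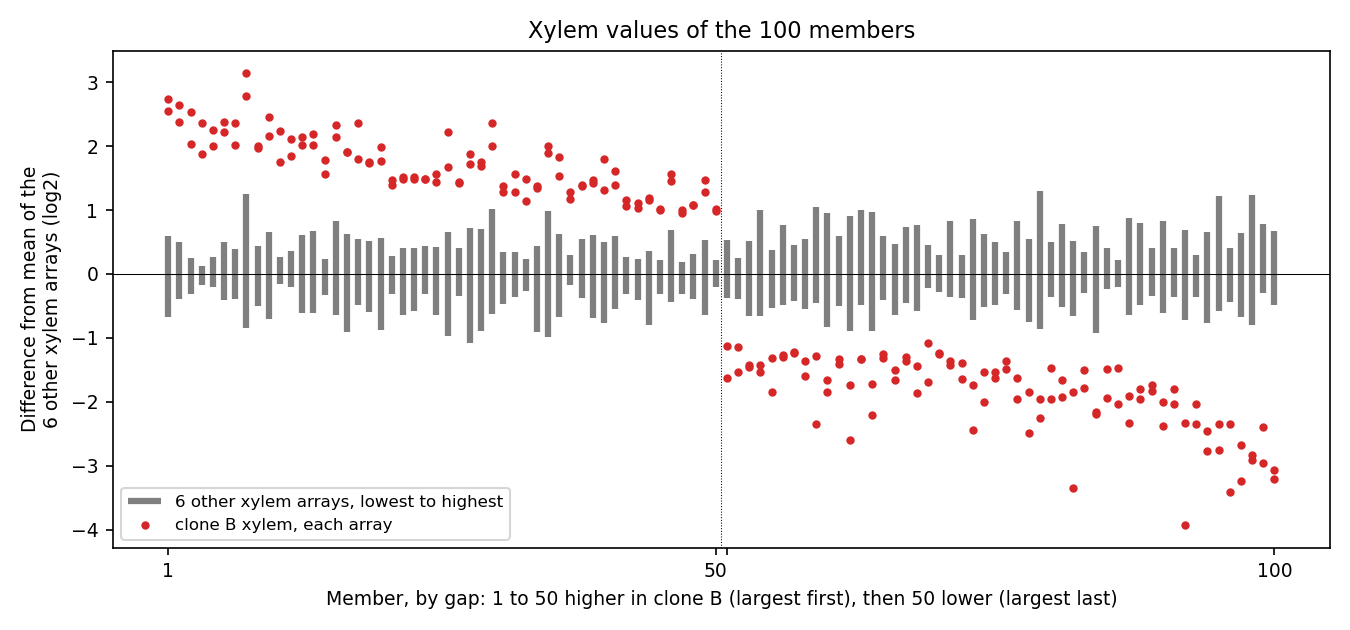
Each of the 100 features is 1 position on the horizontal axis, ordered by gap, with the 50 higher in clone B on the left and the 50 lower on the right. The vertical axis gives the difference from the feature's mean on the 6 other xylem arrays in log2 units, with a grey bar from the lowest to the highest of these 6 arrays and a red point for each clone B array. Both red points lie outside the bar in all 100 features, as the choice requires, and their pairs lie closer together on the left (median 0.15) than on the right (median 0.30).

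Of the 6 features of largest gap higher in clone B, 5 lay below the array median on all 6 other xylem arrays. LYPTUS00S00016489 had the largest gap of this kind, 1.96 log2 units. It was at 9.95 and 10.14 in clone B ramets 1 and 2. In clone A xylem it was at 7.99 and 7.76, and the E. globulus arrays read 6.72 and 7.06 for clone A and 7.24 and 7.60 for clone B. Clone B thus had 6.26 times the geometric mean of the other 6 arrays, and within those 6 the E. grandis arrays were above all E. globulus arrays. LYPTUS00S00019860 followed with clone B at 9.81 and 9.54, clone A at 6.79 and 7.21, and E. globulus at 6.78, 7.54, 7.04 and 7.67. Here E. grandis clone A lay inside the range of E. globulus.

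The next 3 features by gap differed little among the 6 other arrays. LYPTUS00S00020362 was at 8.52 and 8.02 in clone B, 6.23 and 6.24 in clone A, with between 5.67 and 6.03 in E. globulus. LYPTUS00S00016323 was at 8.64 and 8.15 in clone B, 6.40 and 6.38 in clone A, with between 6.11 and 6.32 in E. globulus. Its 6 other arrays spanned 0.29 log2 units, the narrowest range among the 100 features. LYPTUS00S00015866 was at 8.20 and 7.95 in clone B, 5.98 and 5.85 in clone A, with between 5.75 and 6.21 in E. globulus.

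In these 3 features and in LYPTUS00S00010606, all 6 other xylem arrays lay in the lowest 25% of the values of their array. No background level was used here, so a fold change from such dim values holds on the RMA scale and can understate the change of the transcript. LYPTUS00S00016492 was at 8.50 and 8.35 in clone B, 6.63 and 6.59 in clone A, with 5.72, 6.10, 5.75 and 5.96 in E. globulus. Clone A was thus above every E. globulus array, as for LYPTUS00S00016489. The numbers of these 2 features are 3 apart, the closest of any 2 of the 100. Their 10 values correlate at r = 0.939 over 10 arrays that share the clones. Both were chosen as higher in clone B, which by itself raises r on the xylem arrays. Other pairs higher in clone B had r = 0.972 at 15 numbers apart and -0.778 at 11 numbers apart. Whether LYPTUS00S00016489 and LYPTUS00S00016492 come from the same gene was not tested.

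All 6 features of largest gap lower in clone B lay above the array median on the 6 other xylem arrays. LYPTUS00S00000140 had the largest gap of all, 2.58 log2 units. It was at 11.19 and 11.05 in clone B, 14.92 and 13.80 in clone A, with 14.20, 13.77, 14.39 and 14.40 in E. globulus. Both clone B arrays were about as far below the other clones as each other. The other 6 arrays had a geometric mean 8.74 times that of clone B, and the clone B arrays still lay above the median of their array. LYPTUS00S00016441 was at 9.12 and 9.68 in clone B, 11.87 and 11.77 in clone A, with between 11.83 and 12.85 in E. globulus.

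LYPTUS00S00008104 was at 7.42 and 7.34 in clone B and 9.72 and 9.46 in clone A. It varied more among the others, with E. globulus at 10.29 and 9.97 in clone A and 11.48 and 10.57 in clone B. LYPTUS00S00015688 reached the low end of the scale in clone B, at 5.40 and 5.97, against 9.28 and 8.69 in clone A and 9.26, 7.95, 8.50 and 8.11 in E. globulus. Both clone B arrays lay in the lowest 25% of their array there. This also held for LYPTUS00S00021316, LYPTUS00S00019196, LYPTUS00S00010901 and LYPTUS00S00017263, which are named because of these values.

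LYPTUS00S00018699 was at 9.81 and 10.87 in clone B, 13.63 and 13.57 in clone A, with 12.79, 12.81, 13.30 and 13.23 in E. globulus. Its clone B ramets differed by 1.06 log2 units, more than the 0.85 spanned by the 6 other arrays. LYPTUS00S00007221 was at 9.29 and 8.88 in clone B, 11.70 and 11.06 in clone A, with 12.85, 11.74, 11.32 and 11.12 in E. globulus. These 6 features of largest gap were between 5.85 and 8.74 times lower in clone B by geometric means, and the 6 of largest gap on the other side between 4.34 and 6.26 times higher.

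**Figure D2:**
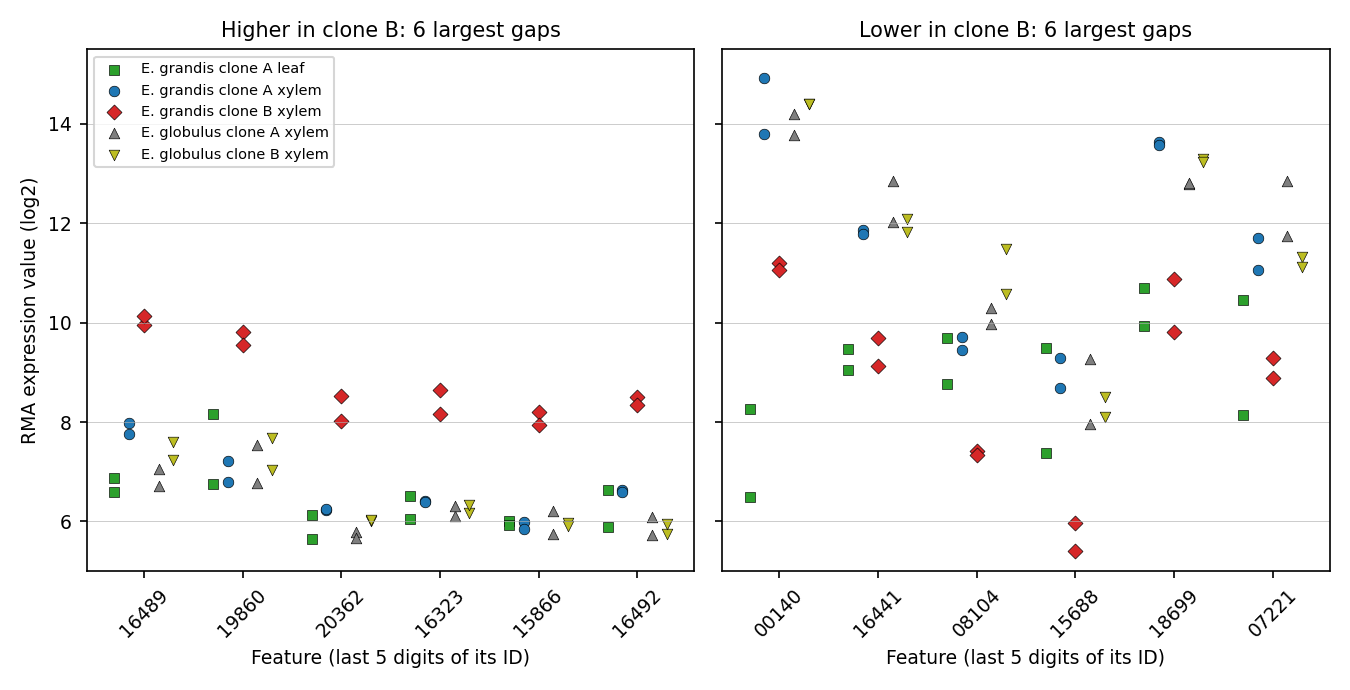
The horizontal axis holds the 6 features of largest gap in each direction and the vertical axis gives the log2 RMA expression value, with 1 symbol for each of the 10 arrays. The clone B xylem diamonds are above every other xylem symbol on the left and below every other xylem symbol on the right, while the leaf squares of clone A lie with the other xylem arrays in some features and with or beyond clone B in others.

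The features differed in how sharply clone B was set off. The clone B ramets differed by a median of 0.20 log2 units (0.0005 to 1.60) over the 100 features, against a median of 0.27 over all 21413. A small difference between them is part of what the choice rewards. In 3 features the ramets were further apart than the gap, namely LYPTUS00S00003467, LYPTUS00S00009397 and LYPTUS00S00001307, of which the last 2 were picked out after their values were seen. LYPTUS00S00003467 was at 9.43 in ramet 1 and 7.92 in ramet 2, against 11.79 and 11.45 in clone A and between 10.62 and 11.56 in E. globulus. The widest difference between the ramets, 1.60, was that of LYPTUS00S00013223, likewise picked out afterwards, at 6.14 and 7.74 against 9.35 to 10.76 on the 6 others. Among the 6 other arrays the range was 0.29 to 2.15 log2 units with a median of 1.11, and in 47 features it was wider than the gap.

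Clone B was compared with clones of 2 species, and neither was uniformly the nearer. The other array closest to clone B belonged to clone A of E. grandis (2 of the 6 arrays) in 54 features and to E. globulus in 46. These counts come from the values that the choice used and were not set against all features. By group means clone A was the nearer in 64. Among the features higher in clone B the closest array was a clone A array in 32 and ramet 1 of clone A alone in 22 of 50. Among those lower in clone B it was a clone A array in 22 of 50, ramet 2 of clone A in 15 and E. globulus clone A ramet 2 in 11. Clone B minus clone A had a median of 1.40 log2 units (0.86 to 3.52) in the features higher in clone B and of -1.64 (-3.52 to -0.89) in those lower. Clone B minus E. globulus had a median of 1.76 (0.90 to 2.88) and -1.76 (-3.20 to -1.14).

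The pattern was also read within blocks and within series of array numbers. Each feature is printed in 2 blocks per array, whose mean the choice used, so the blocks are no independent check. The gap was above 0 in both blocks for all 100 features, from 0.32 to 3.15 log2 units in block 1 and from 0.08 to 2.56 in block 2. The array numbers were cut at their widest step into a lower and a higher run, here called the earlier and the later series. The sample labels name no such series, so it is not known to be a batch or an order in time. Each series holds 1 clone B and 1 clone A xylem array, and all E. globulus arrays are in the earlier. Clone B minus clone A in the earlier series had a median of 1.65 log2 units (0.78 to 3.41) in the features higher in clone B and -1.69 (-4.02 to -0.80) in those lower. In the later series the medians were 1.33 (0.75 to 3.62) and -1.87 (-3.88 to -0.79). The choice fixes that both series give the same direction.

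The overall brightness of the features was mixed. In 51 of the 100 all 8 xylem arrays lay above the median of their array, and in 2 (LYPTUS00S00010901 and LYPTUS00S00010606) all 8 lay below it. In 11 features clone B was above the median and the 6 others below, and in 14 features clone B was below it and the 6 others above. Over all 21413 features, all 8 lay above it in 7914, and the other cases were not counted. These counts come from the values that the choice used. LYPTUS00S00004887 was the brightest of the 100 in clone B, at 13.13 and 13.32, against 12.15 and 11.20 in clone A and between 11.64 and 12.38 in E. globulus. LYPTUS00S00006033 was the next, at 12.88 and 12.92, but it belonged to the features lower in clone B, with 13.88 and 13.70 in clone A and between 14.08 and 14.95 in E. globulus. All 100 features had the full 9 probe pairs. The probes are described only as designed for Eucalyptus, so less transcript in clone B and alleles that bind the probes less well would look the same, which was not tested.

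The feature numbers, which the choice did not use, were spread over the whole list. The 100 features fell into all 10 equal classes of feature number, with 4 to 17 in a class. The fullest classes were numbers 6425 to 8565 with 17 features and 14996 to 17146 with 15, and the emptiest was 19295 to 21442 with 4. Consecutive members lay 20 numbers or fewer apart in 10 places, and in 6 of these both had the same direction. How the numbers were assigned is not given in the sources used here.

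Leaf blade was the only tissue that the choice left out, so it shows how the same features behaved elsewhere in clone A. Of the 100 features, 44 were lower and 19 higher in leaf than in xylem of clone A, and 37 did not pass the test (limma, adjusted p under 0.05 over all features). Over all 21413 features, 13.3% were lower and 11.8% higher in leaf, together 25.1% against 63 of the 100. The typical size was also larger, with a median absolute difference of 1.28 log2 units against 0.39 over all features. The share called was higher among bright features. Of the 7914 features above the array median on all 8 xylem arrays 34.7% were called, and of the 51 such members 41 were. Of the remaining 13499 features 19.5% were called, and of the 49 remaining members 22 were. The clone A xylem arrays entered both this comparison and the choice of the features, so the counts describe the list and are not evidence of a property of clone B.

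These counts depended on single arrays, on the array series and on which arrays gave the estimate of the spread. Over the 4 arrays of clone A alone, 14 of the 100 were higher and 34 lower in leaf (8.37% and 10.2% of all features). The leaf arrays are both of the later series. Without clone A xylem ramet 2, which leaves only later arrays in the comparison, 12 of the 100 were higher and 37 lower in leaf (8.11% and 9.59% of all features). Without clone A xylem ramet 1 they were 12 and 27 (7.86% and 8.22%), and with the series as a term of the fit 12 and 37 (8.92% and 9.66%). Without leaf ramet 2 there were 13 higher and 46 lower (12.4% and 13.8% of all features), so that the count of higher calls was close to the share over all features. In each of these fits a group left with 1 array is assumed to vary as the other groups do. Leaf ramet 1 had the least repeatable array, with block differences of SD 0.58 log2 units over the 100 features against 0.23 to 0.45 elsewhere, and without that array the counts were 21 and 40 (14.6% and 13.3% of all features).

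**Figure D3:**
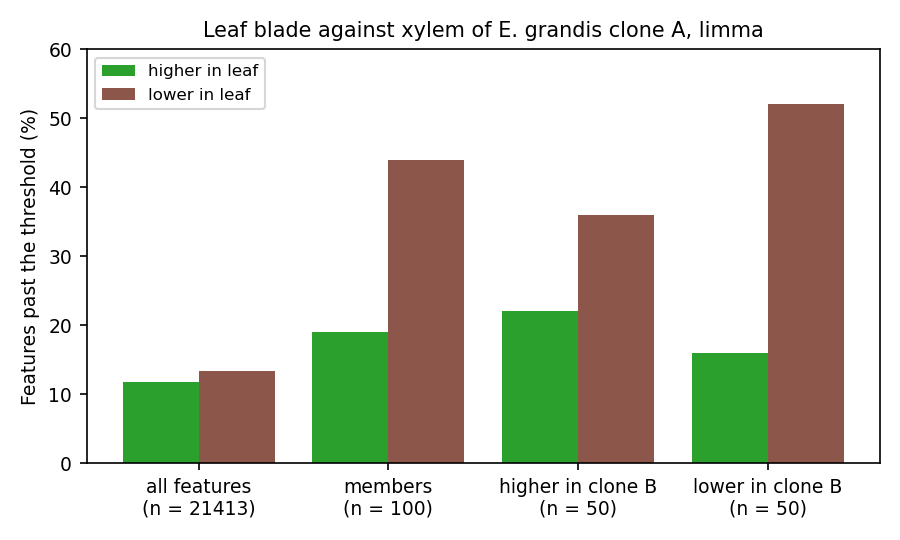
Bars give the percentage of features past the threshold in leaf blade against xylem of clone A, separately for those higher and lower in leaf. All 21413 features (11.8% and 13.3%) stand beside the 100 members (19% and 44%) and the members higher (22% and 36%) or lower (16% and 52%) in clone B xylem.

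Of the 50 features higher in clone B xylem, 18 were lower in leaf than in clone A xylem, 11 were higher and 21 did not pass. The median difference was -0.46 log2 units, against 0.04 over all features. The 3 features of largest positive difference were all of this kind. LYPTUS00S00007262 was at 13.26 and 13.56 in leaf, 7.39 and 7.73 in clone A xylem and 10.10 and 9.80 in clone B xylem, with 6.94 to 8.30 in E. globulus. No leaf array came near any xylem array, and the order was leaf, then clone B xylem, then the others. The difference of leaf from clone A xylem was 5.85 log2 units (SE 0.331, limma adjusted p 3.07e-07).

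LYPTUS00S00004861 was at 11.14 and 12.63 in leaf, 7.85 and 7.16 in clone A xylem, with 8.90 and 8.89 in clone B. Its difference was 4.38 log2 units (SE 0.422, limma adjusted p 1.26e-05), and 5.13 without leaf ramet 1 or 3.63 without leaf ramet 2. LYPTUS00S00005600 was at 12.91 and 13.59 in leaf, 9.59 and 9.15 in clone A xylem, with 10.39 and 10.61 in clone B, and differed by 3.88 (SE 0.307, limma adjusted p 2.87e-06). In both, all E. globulus arrays lay between 7.10 and 9.13.

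Among the 18 that were lower in leaf was the feature brightest in clone B xylem. LYPTUS00S00004887 was at 8.95 and 7.53 in leaf and at 11.20 or above on all 8 xylem arrays, and fell by 3.44 log2 units from clone A xylem to leaf (SE 0.438, limma adjusted p 0.000106). Without leaf ramet 1 that difference was -4.15 and without leaf ramet 2 -2.73. LYPTUS00S00016489 was at 6.87 and 6.58 in leaf, around the lowest E. globulus array (6.72) and 1.15 log2 units below clone A xylem (a leaf minus xylem difference of -1.15, SE 0.272, limma adjusted p 0.00784). It lost this call without clone A xylem ramet 1 (limma adjusted p 0.0862). The other 5 of the 6 largest gaps did not pass in leaf, with differences from -0.35 to 0.45 log2 units and limma adjusted p from 0.474 to 0.948. LYPTUS00S00015866 had a leaf mean of 5.96 ± 0.05 (SD, n = 2), inside the range of the 6 other xylem arrays.

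Of the 50 features lower in clone B xylem, 26 were lower in leaf than in clone A xylem, 8 were higher and 16 did not pass, with a median difference of -1.22 log2 units. The 3 features of largest negative difference were all of this kind. LYPTUS00S00000140 was at 8.27 and 6.49 in leaf, far below its 14.92 and 13.80 in clone A xylem and also below both clone B arrays. It differed by -6.98 log2 units (SE 0.506, limma adjusted p 1.61e-06), a 126-fold lower value in leaf. The difference was -7.87 without leaf ramet 1 and -6.10 without leaf ramet 2. LYPTUS00S00015898 was at 5.77 and 6.35 in leaf, 11.54 and 11.18 in clone A xylem, 9.89 and 9.60 in clone B, and between 11.09 and 11.73 in E. globulus, with a difference of -5.29 (SE 0.315, limma adjusted p 4.11e-07).

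LYPTUS00S00003467, whose clone B ramets were far apart, was at 6.65 and 6.02 in leaf and differed by -5.28 (SE 0.475, limma adjusted p 7.47e-06). LYPTUS00S00006033 was at 9.90 and 10.69 in leaf and differed by -3.49 (SE 0.320, limma adjusted p 8.56e-06). These 4 features shared an order in which E. globulus and clone A xylem were highest, clone B xylem lower and leaf lowest.

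LYPTUS00S00018699 and LYPTUS00S00016441 had leaf values that met those of clone B xylem. LYPTUS00S00018699 was at 10.69 and 9.94 in leaf and 9.81 and 10.87 in clone B, and its leaf minus clone A xylem difference was -3.29 (SE 0.360, limma adjusted p 3.26e-05). LYPTUS00S00016441 was at 9.06 and 9.46 in leaf and 9.12 and 9.68 in clone B, with a difference of -2.56 (SE 0.330, limma adjusted p 0.000116). The leaf mean lay between the 2 clone B values in these and in LYPTUS00S00021316, LYPTUS00S00006700 and LYPTUS00S00001307.

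The other named features lower in clone B varied in leaf. LYPTUS00S00007909 was at 8.60 and 8.14 in leaf and 10.60 and 10.65 in clone A xylem (difference -2.26, SE 0.313, limma adjusted p 0.000204). LYPTUS00S00007221 was at 8.13 and 10.45 in leaf, a spread of its own that nearly reached clone A xylem, and its difference of -2.09 (SE 0.608, limma adjusted p 0.0245) lost its call without leaf ramet 1 (-0.93, limma adjusted p 0.165) and without clone A xylem ramet 1 (0.170) or ramet 2 (0.0527). LYPTUS00S00008104, at 8.76 and 9.70 in leaf, and LYPTUS00S00015688, at 7.37 and 9.50, did not pass (limma adjusted p 0.606 and 0.633). In LYPTUS00S00008104 1 leaf value lay below and 1 within the range of clone A and E. globulus xylem, and both lay above clone B. The sign for LYPTUS00S00015688 depended on the leaf array kept, with a difference of 0.51 without leaf ramet 1 (limma adjusted p 0.551) and -1.62 without leaf ramet 2 (limma adjusted p 0.0344). LYPTUS00S00008104 also changed sign, with 0.11 without leaf ramet 1 and -0.83 without leaf ramet 2.

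**Figure D4:**
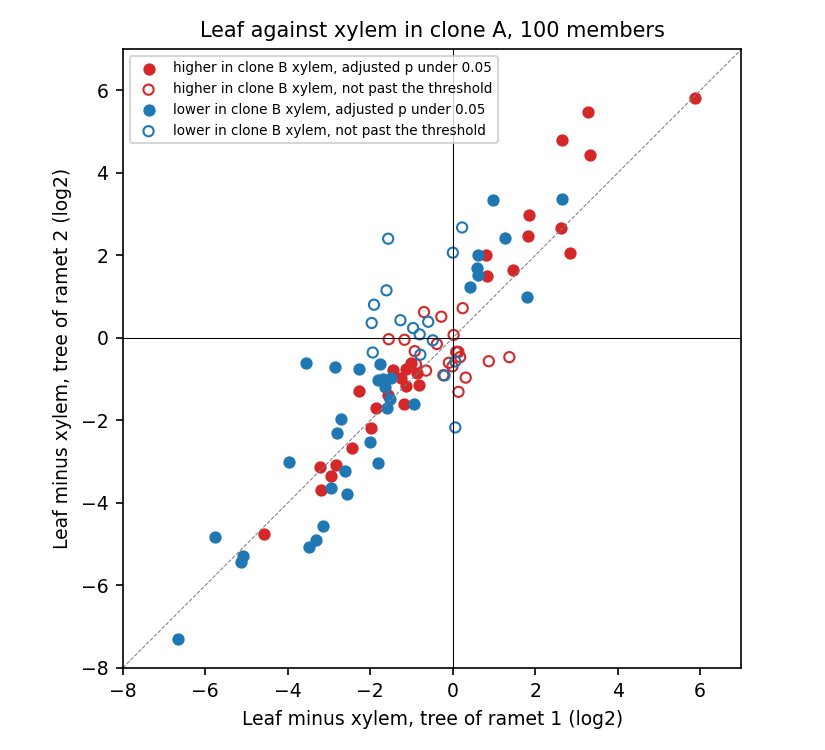
Each point is 1 of the 100 features, with the leaf minus xylem difference in log2 units of the clone A tree of ramet 1 on the horizontal axis and that of ramet 2 on the vertical axis. Colour gives the direction in clone B xylem and filled points passed the limma threshold. The trees gave the same direction in 80 of the 100 features, and the points run from near -7 to near 6 along the diagonal.

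Both trees of clone A gave a like picture for most of the features. The leaf minus xylem difference had the same direction in both trees for 80 of the 100 features, against 58.2% of all features. These shares were not split by brightness. Leaf was at least 2-fold lower in both trees for 31 features and at least 2-fold higher for 11. The same was not counted over all features, so these counts only describe the list. With the tree as a block, leaf was compared with xylem of the same tree. Then 19 features were again higher and 44 lower in leaf (11.7% and 12.9% of all features), and 62 of the 63 calls were shared.

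Where leaf stood relative to clone B was described without a test. In 24 features the mean of leaf lay beyond clone B, that is further from the 6 other xylem arrays, in 5 between the 2 clone B values, and in 16 in the gap. In 24 it lay within the range of the 6 other arrays, and in 31 beyond them on the side away from clone B. In the features higher in clone B these counts were 9, 0, 4, 15 and 22, and in those lower 15, 5, 12, 9 and 9. Both leaf arrays lay past the middle of the gap towards clone B in 32 features, 1 of them in 10 and neither in 58. Leaf shares its genotype with clone A xylem but is another tissue. These places were not counted over all features, so the counts only describe the list.

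When clones A and B of E. grandis exchanged places in the same choice, clone A stood apart more widely. The limit then held the mean of clone B within 1 log2 unit of E. globulus, so the eligible features need not be the same. Within its limit, 4931 features kept both clone A xylem arrays off the 6 others, against 2045 of 18936 for clone B. How many features were eligible for clone A was not counted. The 100 of largest gap had gaps from 1.15 to 4.22 log2 units with a median of 1.40, and 69 were higher and 31 lower in clone A. None of these features could be among the 100 that set clone B apart (0 shared). Their clone A means lie more than 1 log2 unit from those of E. globulus, so the limit used for clone B kept all of these features out. In leaf against clone A xylem, 45 of them were lower and 9 higher (limma, adjusted p under 0.05). Over all features 13.3% were lower and 11.8% higher, so the higher calls were below that share. This comparison uses the arrays on which they were chosen. Leaf of the same trees lay past the middle of that gap towards clone A on both arrays in 36 features and on neither in 41. This was likewise not counted over all features. The difference between the clones in how far they stand apart was not tested.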

How the data were processed

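Cy3-labelled RNA of 10 samples (5 groups of 2 ramets) was hybridised to 1 array each. The authors deposited, for each feature and block, an intensity on a linear scale, named as an RMA value per the submitters' processing notes; version, settings and joint normalisation are not given in the sources used here. Log2 values were taken, the 2 blocks averaged, and no filter applied. The number of arrays limits the precision. A deposited table of the series equals, after division by 10000, the linear block means to within 0.001 intensity units; its column medians are 2366804 and 2316820.5 (leaf), 2310113 and 2239949.5 (E. grandis clone A xylem), 2260218 and 2253241 (clone B), 2373949.5 and 2312826.5 (E. globulus clone A), 2212800.5 and 2233937.5 (clone B), ramets 1 and 2 as named. It is not centred.

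Leaf and xylem of clone A were compared with limma 3.58.1 in R 4.3.3 over all 10 arrays with 1 mean per group, with Benjamini-Hochberg adjustment over 21413 features. The fit was tested on simulated data. Its p-values set the leaf minus xylem difference against the spread between the 2 ramets of a genotype, pooled over the 5 groups. Except with the tree as a block, leaf and xylem of the same tree were treated as independent. Same-numbered leaf and xylem samples come from the same tree, per the labels; their ramet differences correlated at r = -0.354 across features. Members, lists and tests were chosen with earlier results of these data known. Named were the 6 features of largest gap in each direction, 2 on each side of the edge, the 3 largest leaf differences in each direction with arrays that do not overlap, the 2 smallest leaf differences among gaps over 2, and the 2 brightest in clone B; others are marked as picked out afterwards or named by a count. Alternatives were quantile normalisation, each block, the tree as a block, clone A arrays alone, array series, a filter on the dimmest 25%, an intensity trend, the deposited table, other limits of the choice and leaving out each array.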

Additional observations from a re-analysis of the deposited data

Results flagged for a closer look

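Over the 8 xylem arrays the interquartile range of the log2 values reached 2.84 for ramet 1 of E. globulus clone A, whereas the rest spanned 2.41 to 2.60, a distance beyond the 95% limit for a single outlying array. It was the only 1 of 25 searched measures to stand out, and chance picks about 1 in 20 groups. Without that array 89 of the 100 features were chosen again, and 90 after quantile normalisation. No group of the study is large enough for this search, so it ran over xylem arrays, over all 10 arrays or over the 4 E. globulus arrays.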

How the results depend on the processing

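The choice of features was repeated under each alternative. Of the 100 features, 81 to 94 were chosen again after quantile normalisation, in each block alone, with no limit on clone A and with the dimmest 25% left out. With the gap divided by the pooled SD plus the median of that SD over all features, 82 were chosen again. So were 63 with a limit of 0.5 log2 units, and 60 (without clone B ramet 1) to 91 when an array was left out. With the deposited table and its columns as named, 0 were, which the choice and the exchanged columns fixed in advance. In leaf against clone A xylem, leaving out an array gave 12 to 21 features higher in leaf, 27 to 46 lower and 39 to 63 in all, with the lowest total without clone A xylem ramet 1. The shares over all features moved too, from 7.86% to 14.6% higher, 8.22% to 14.1% lower and 16.1% to 28.0% in all. The array series as a term gave 12 higher and 37 lower (8.92% and 9.66% of all features). The 4 arrays of clone A alone gave 14 higher and 34 lower (8.37% and 10.2%). With the table as named limma called 0 higher and 0 lower, 0 in all, with 0 at an unadjusted p under 0.05, since its leaf and clone A columns hold E. globulus arrays. There, of the named features that had passed, the leaf minus xylem difference turned sign for LYPTUS00S00016489 (0.52), LYPTUS00S00000140 (0.42), LYPTUS00S00018699 (0.46), LYPTUS00S00007909 (0.18), LYPTUS00S00003467 (0.19), LYPTUS00S00004861 (-0.22), LYPTUS00S00005600 (-0.38) and LYPTUS00S00004887 (0.46), and LYPTUS00S00016441, LYPTUS00S00007221, LYPTUS00S00015898, LYPTUS00S00007262 and LYPTUS00S00006033 lost their calls. Of those that had not passed, LYPTUS00S00008104 (0.90), LYPTUS00S00020362 (0.27), LYPTUS00S00016323 (0.03) and LYPTUS00S00015866 (-0.05) turned sign. The tree as a replicate block left 19 higher and 44 lower (11.7% and 12.9% of all features) and changed the call of no named feature. In the other alternatives, changed calls of named features are given with them, except LYPTUS00S00007221, which also lost its call over the 4 arrays of clone A alone (limma adjusted p 0.0901) and with the array series as a term (0.066). Each group holds 2 arrays. No background level was used here.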
